A study of Rattus norvegicus with 2 samples.

Results

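The genes described here are 7 small leucine-rich proteoglycans of the rat cochlear duct, chosen by name from the gene list of the files: Dcn (decorin), Lum (lumican), Ogn (osteoglycin), Bgn (biglycan), Fmod (fibromodulin), Omd (osteomodulin) and Aspnl1 (asporin-like). They are 7 of 32623 genes in the count tables, listed as ENSRNOG00000004554, ENSRNOG00000004610, ENSRNOG00000029792, ENSRNOG00000055962, ENSRNOG00000003183, ENSRNOG00000046658 and ENSRNOG00000050431 in that order. Cochlear duct cells of Sprague-Dawley rats, with no treatment named in the labels, were sequenced as 1 droplet library at P1 (postnatal day 1) and 1 at P7 (postnatal day 7), each from the pooled tissue of many animals by the study's methods. The kit primes at the 3′ end of transcripts and tags each captured molecule with a unique molecular identifier (UMI). The study was made to follow the cells of the cochlear duct between these ages, as the greater epithelial ridge is remodelled.

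Small leucine-rich proteoglycans are secreted proteins built from leucine-rich repeats, most of which carry glycosaminoglycan chains, and they lie on collagen fibrils in connective tissue. Decorin, biglycan and asporin form class I of the family. Lumican, fibromodulin and osteomodulin belong to class II, whose members carry keratan sulfate, and osteoglycin belongs to class III. They set the diameter and spacing of collagen fibrils and bind growth factors of the TGF-beta family. In the cochlea the fibrocytes of the spiral ligament and limbus, which are mesenchymal cells, make such a matrix.

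The family is arranged in gene clusters on the rat genome. In the order of RefSeq genes (assembly GRCr8, which is not the build the reads were aligned to), Dcn and Lum lay side by side on chromosome 7 with Kera and Epyc, Ogn and Omd side by side on chromosome 17 with Aspn, Fmod beside Prelp and Optc on chromosome 13, and Bgn on the X chromosome with no family gene beside it. In the RefSeq promoter table used here, of the same assembly, 4 of the 7 genes were matched to sequence from 250 bases before to 50 bases after the start. Those of Ogn, Omd and Lum are shown, because Ogn was the most abundant of the 7 at P1 while its neighbour Omd had 1 UMI, and because Lum differed from its neighbour Dcn in the epithelium-like cells. The Ogn promoter lies at chr17:15258946-15259245, that of Omd at chr17:15274821-15275120, both on the minus strand, and that of Lum at chr7:34245456-34245755 on the plus strand. Capitals mark matches on either strand to 4 motifs, namely TATAAA (the TATA box), CCAAT (the CCAAT box), GGGCGG (the GC box) and TGANTCA (the AP-1 motif).
Ogn: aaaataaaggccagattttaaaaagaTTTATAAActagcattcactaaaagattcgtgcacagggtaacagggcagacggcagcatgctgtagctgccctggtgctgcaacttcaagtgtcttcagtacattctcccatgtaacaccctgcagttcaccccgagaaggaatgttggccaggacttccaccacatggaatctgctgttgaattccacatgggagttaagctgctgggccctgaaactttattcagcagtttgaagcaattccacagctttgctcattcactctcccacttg
Omd: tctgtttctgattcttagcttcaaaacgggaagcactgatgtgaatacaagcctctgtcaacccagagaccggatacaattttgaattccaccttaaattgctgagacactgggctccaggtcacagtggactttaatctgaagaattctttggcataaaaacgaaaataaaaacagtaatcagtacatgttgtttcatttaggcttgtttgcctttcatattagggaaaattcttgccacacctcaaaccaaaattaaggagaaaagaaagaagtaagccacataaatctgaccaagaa
Lum: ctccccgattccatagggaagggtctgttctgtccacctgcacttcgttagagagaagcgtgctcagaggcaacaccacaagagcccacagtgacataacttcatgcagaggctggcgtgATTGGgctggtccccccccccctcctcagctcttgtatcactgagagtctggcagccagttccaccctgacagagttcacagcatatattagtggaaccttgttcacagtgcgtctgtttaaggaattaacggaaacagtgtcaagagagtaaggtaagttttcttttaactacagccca
The Ogn window held 2 overlapping matches to TATAAA, which begin 224 and 222 bases before the start, and 14.2% of 33469 RefSeq rat promoters of the same length held at least 1. The Lum window held 1 match to CCAAT on the opposite strand, 130 bases before the start, as 37.5% of promoters did. The Omd window held none of the 4 motifs, of which GGGCGG was in 33.1% and TGANTCA in 7.33% of all promoters.

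After the limits on cells stated in the study's methods, 12779 of 14068 barcodes remained at P1 and 12581 of 14501 at P7, with 98005495 and 93080129 UMIs and medians of 6565 and 6878 UMIs per cell. No p-value is given, since each age had a single library, and for the same reason age and library cannot be told apart. Intervals are exact at the 95% level and cover counting error only. A level is the UMIs of a gene per 1000000 UMIs of the same cells (CPM). Since each captured transcript gives 1 UMI whatever its length, levels of different genes are set side by side without a length scale, although capture may differ between genes.

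Cells were clustered without the 7 genes or any listed marker, and clusters were given a class from fixed marker lists. Mesenchyme-like cells made up 72.3% of kept cells at P1 (9243) and 61.0% at P7 (7678), mural-like cells (pericytes and vascular smooth muscle, led by Rgs5) 2.57% (329) and 2.28% (287). The 12 mesenchymal markers summed to 14424 and 16531 CPM in the former, led by Otor, and the 11 mural markers to 7270 and 8205 CPM in the latter, against 91.5 and 122 CPM in mesenchyme-like cells. Epithelium-like cells were only 2.18% (278) and 1.70% (214), although the labels name the cells of both libraries as greater epithelial ridge cells, so the libraries are described here by their measured classes. Of 11 mesenchyme-like clusters 9 took over 90% of their cells from 1 library. Clusters are therefore described from a clustering in which the libraries were integrated, where none of 9 mesenchyme-like clusters did and each had at least 420 cells of either age.

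Over all kept cells, Dcn had 50027 UMIs at P1 and 150979 at P7, or 510 and 1622 CPM. Ogn had 52823 and 40242 UMIs, or 539 and 432 CPM. Bgn had 27772 and 30683 UMIs, or 283 and 330 CPM. These 3 genes were the abundant ones, Lum was intermediate with 8515 and 13775 UMIs (86.9 and 148 CPM), and Aspnl1 and Fmod were low. Aspnl1 had 3505 and 3128 UMIs (35.8 and 33.6 CPM) and Fmod 1642 and 1059 (16.8 and 11.4 CPM). Omd was nearly absent from the counts, with 1 UMI at P1, in an I5 mesenchyme-like cell, and 0 at P7, which allows up to 0.0322 CPM by a floor of 3 counts. At least 2-fold higher at P7 was 1 of the 6 genes with a mean of at least 10 CPM, Dcn, and 0 were at least 2-fold lower, against 8.50% and 5.33% of 7635 genes that passed the same minimum.

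Mesenchyme-like cells held between 84.9% and 95.3% of the UMIs of each of the 6 detected genes at either age. In these cells Dcn, which binds collagen and TGF-beta, was at 684 CPM at P1 and 2358 CPM at P7, a 3.45-fold higher level at P7 (log2 ratio 1.78, interval 1.77 to 1.80). Lum, a keratan sulfate proteoglycan of collagen fibrils, was at 113 and 204 CPM (log2 ratio 0.85, interval 0.81 to 0.89). Bgn, the closest relative of decorin, was at 354 and 457 CPM (log2 ratio 0.37, interval 0.35 to 0.40). The other genes did not share this direction. Ogn, a class III member, was at 715 CPM at P1 and 618 CPM at P7 (log2 ratio -0.21, interval -0.23 to -0.19). Fmod, which binds fibrillar collagen near the site of lumican, was at 21.2 and 15.3 CPM (log2 ratio -0.48, interval -0.60 to -0.35). Aspnl1 was level over the whole class, at 47.5 and 47.9 CPM (log2 ratio 0.01, interval -0.06 to 0.08).

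The summed level of the 7 genes in mesenchyme-like cells was 1934 CPM at P1 and 3700 CPM at P7. The leading gene was not the same at the 2 ages, as Ogn made up 36.9% of the sum at P1 and Dcn 63.7% at P7. Only Dcn passed 2-fold, 1 of 6 genes tested, where 9.09% of 7394 genes were at least 2-fold higher and 4.57% at least 2-fold lower, and 0 of the 6 were at least 2-fold lower. The median log2 ratio of the 6 genes was 0.19 against 0.14 over all genes tested, a shift in favour of P7 that all log2 ratios in mesenchyme-like cells contain. Relative to it the ratio of Dcn was 1.64 and that of Aspnl1 -0.13. When 1 cluster of the merged clustering with haemoglobin genes among its leading genes (23 cells at P1 and 1687 at P7) was left out, the log2 ratio was 2.03 for Dcn and 1.10 for Lum, which then also passed 2-fold. This removed almost only P7 cells, so the make-up of the 2 ages was changed unequally. Integrated cluster I3, which shared the leading genes Pmch, Maob and Wif1 with it, had 1142 cells at P1. With the 9 integrated clusters weighted equally, so that changed cluster sizes did not enter, it was 1.36 for Dcn, 0.45 for Lum, 0.22 for Bgn, -0.50 for Ogn, -0.72 for Fmod and -0.58 for Aspnl1.

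**Figure D1:**
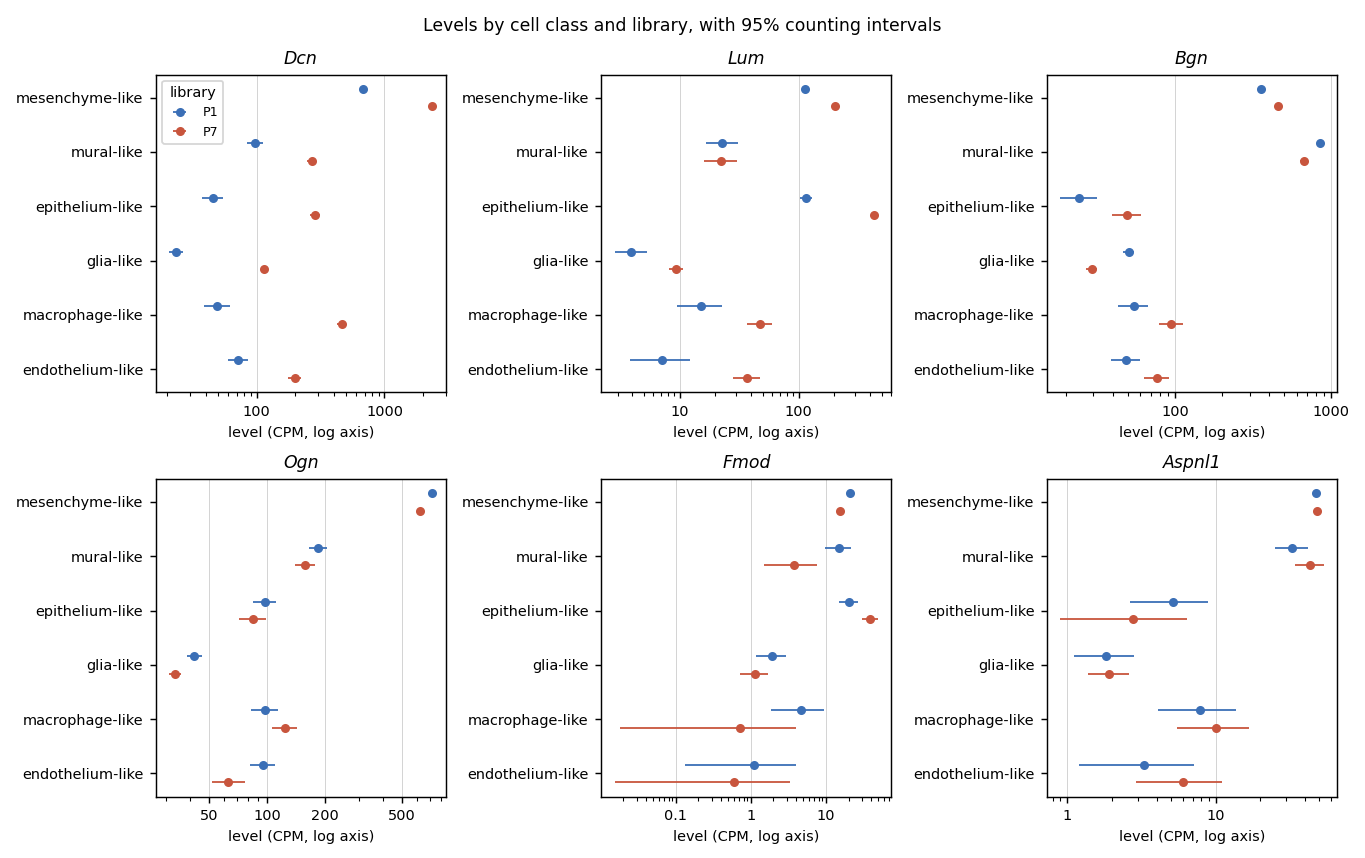
Level of the 6 detected proteoglycan genes (CPM, log axis) in 6 cell classes, with P1 in blue and P7 in red; points are levels of 1 library and bars exact 95% counting intervals. Dcn, Ogn and Aspnl1 were highest in mesenchyme-like cells, Bgn in mural-like cells, and Lum and Fmod were at least as high in epithelium-like as in mesenchyme-like cells at P7. For Aspnl1 at P7 the intervals of mesenchyme-like and mural-like cells overlapped.

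Detection was compared at equal depth. For this each cell was thinned to 2000 UMIs, which left out 252 cells at P1 and 711 at P7 that had fewer. A UMI of Dcn was found in 36.7% of thinned mesenchyme-like cells at P1 and 55.5% at P7 (49.6% and 70.1% unthinned). For Ogn the thinned shares were 53.2% and 55.4%, for Bgn 46.9% and 54.6%, and for Lum 11.2% and 17.2%. Aspnl1 and Fmod were found in few cells, 7.31% and 7.93% for Aspnl1 and 3.99% and 2.37% for Fmod. The share with Ogn was thus slightly higher at P7 although its level was lower. On average 1.59 of the 7 genes were found per thinned mesenchyme-like cell at P1 and 1.93 at P7. None was found in 20.1% and 13.3% of these cells, and 3 or more in 22.5% and 32.8%.

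Low counts of most of these genes were found outside the mesenchyme-like cells too. Glia-like and macrophage-like cells were taken as classes that should lack decorin. Glia-like cells had Dcn at 23.5 CPM at P1 and 113 CPM at P7, and macrophage-like cells at 49.2 and 464 CPM. Without called doublets these levels were 15.9 and 68.8 CPM and 16.7 and 320.0 CPM. The make-up of the macrophage-like cells was not the same at both ages, as 6 neutrophil markers, led by S100a9, summed to 11905 CPM in them at P1 and 533 CPM at P7, and its part in these levels was not tested. The thinned share of cells with Dcn at P7 was 13.7% in glia-like and 22.1% in macrophage-like cells, at median depths of 4886 and 6969 UMIs. A level or share at or below these values is read here as background. The number of Lum UMIs per Dcn UMI was 0.165 in mesenchyme-like and 0.167 in glia-like cells at P1, and 0.0865 and 0.0821 at P7. This ratio was thus nearly the same in these 2 classes, but other ratios were not. In macrophage-like cells it was 0.307 at P1 (interval 0.183 to 0.495) and 0.102 at P7 (0.0778 to 0.131). The Ogn to Dcn ratio was 1.04 in mesenchyme-like and 1.79 in glia-like cells at P1, and 0.262 and 0.295 at P7. The Bgn to Dcn ratio was 0.517 in mesenchyme-like and 2.16 in glia-like cells at P1, a gap that was smaller at P7 (0.194 and 0.259).

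Decorin was the most unequal in absolute level among the 9 mesenchyme-like clusters, each called here by its number and leading genes. It was highest in I2 (Lepr, Col15a1, Gpc3), at 2397 CPM in the P1 library and 6598 CPM in the P7 library. Next were I5 (Tac1, Mme, Foxd1, Col8a1) with 1601 and 4135 CPM, I6 (Gdf10, Sfrp4, Penk, Dlx5) with 1061 and 2026 CPM, and I9, led by genes of dividing cells such as Cenpf and Top2a, with 923 and 2903 CPM. Cluster I4 (Aldh1a2, Calb2, Itga8) had 368 and 745 CPM and I1 (Car3, Cytl1, Otos, Crym) 193 and 438 CPM. The remaining clusters were at the bottom of the range. I8 (Gcg, Otos, Isyna1, Coch) had 55.1 and 78.4 CPM, I3 (Pmch, Maob, Wif1, Hba-a2) 42.6 and 106 CPM, and I7 (Cav1, Sp5, Ccn3, Scg3) 23.0 and 108 CPM. At P7 these 3 levels were below those of glia-like and macrophage-like cells. Without called doublets they were 78.0, 97.4 and 105 CPM, above the 68.8 CPM of glia-like but below the 320.0 CPM of macrophage-like cells. Dcn in these 3 clusters was thus not clearly told from background at P7. At P1 I8 was above both classes, I3 between them, and I7 just below glia-like cells. Without called doublets all 3 were above both at P1, at 55.2, 37.6 and 20.3 CPM against 15.9 and 16.7 CPM.

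The ratio between the highest and the lowest cluster was 104-fold at P1 and 84.2-fold at P7 for Dcn. In the order of levels, neighbouring clusters had intervals that did not overlap in 8 of 8 pairs at P1 and in 7 of 8 at P7, where I7 and I3 overlapped. The level was higher at P7 in 9 of 9 clusters, with I3, I7 and I8 included. It was at least 2-fold higher in 7, all but I6 and I8. The log2 ratio was 0.51 in I8 and 2.23 in I7, close to the 2.27 of glia-like cells. The ratio was 1.32 in I3 (interval 1.13 to 1.52). In the other clusters it was 1.65 in I9 (interval 1.61 to 1.69), 1.46 in I2 (1.44 to 1.48), 1.37 in I5 (1.34 to 1.40), 1.18 in I1 (1.10 to 1.26), 1.02 in I4 (0.96 to 1.08; 0.78 without called doublets) and 0.93 in I6 (0.89 to 0.98). The 438 CPM of I1 at P7 was above the level of glia-like cells but below the 464 CPM of macrophage-like cells, while without called doublets it was 370.5 CPM and above the 320.0 CPM there. Cluster I2 held 35.6% of all Dcn UMIs at P1 with 7.85% of the cells, and 49.4% at P7 with 12.6% of the cells. Detection in I2 was near complete, as 88.0% of its thinned cells had a UMI of Dcn at P1 and 97.2% at P7. Because Dcn took no part in the clustering, its place among the leading genes of I2 was not fixed by it.

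**Figure D2:**
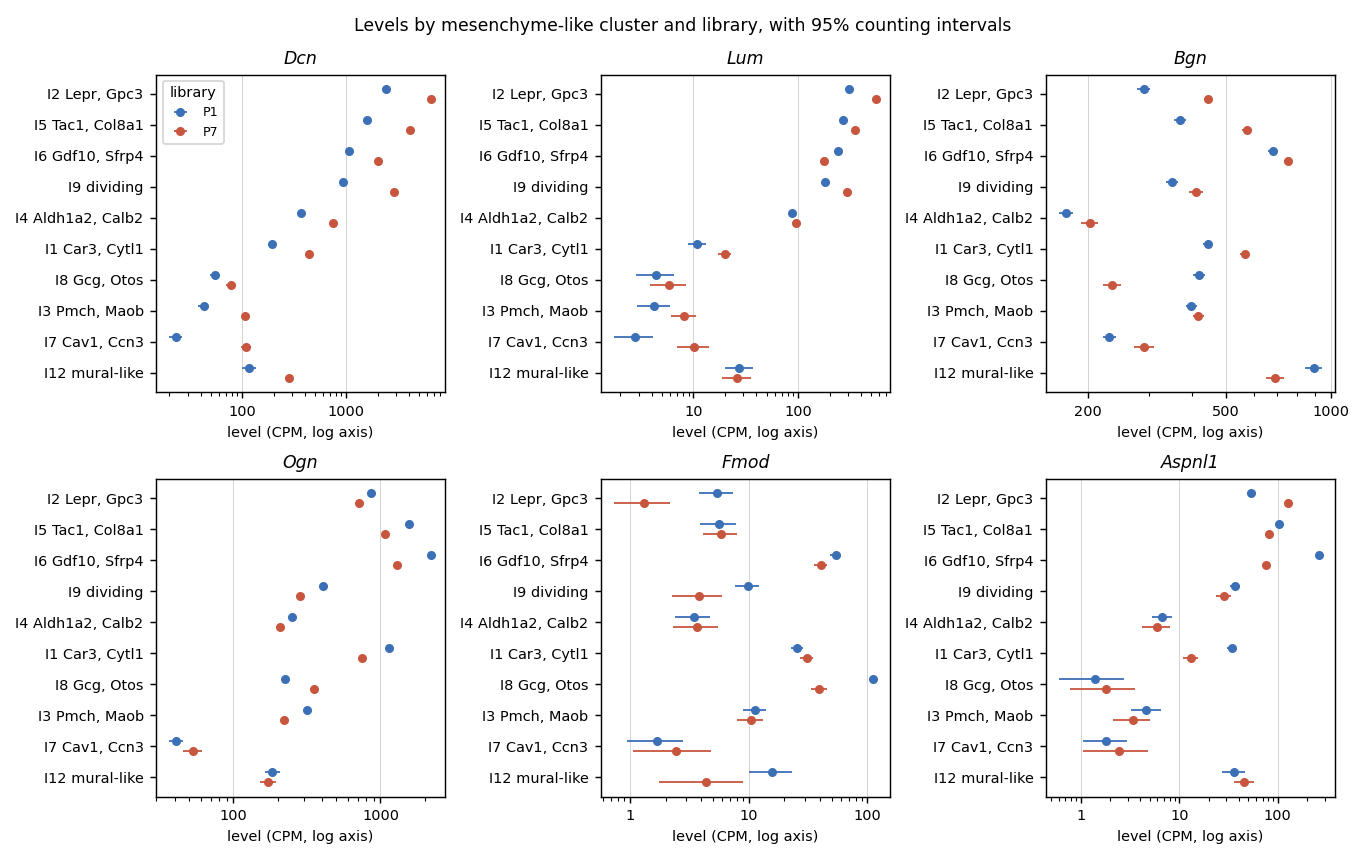
Level of the 6 genes (CPM, log axis) in 9 mesenchyme-like clusters and the mural-like cluster I12 of the integrated clustering, with P1 in blue and P7 in red; bars are exact 95% counting intervals, and the clusters are in the order of Dcn at P1. Dcn and Lum were in the same order from I2 down to I7 at P1, Ogn peaked in I6, Fmod in I8 and I6, and Bgn spanned a narrow range.

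Biglycan was the evenest of the genes. It was highest in I6, at 680 CPM at P1 and 753 CPM at P7, and lowest in I4, at 174 and 203 CPM. The range over clusters was 3.91-fold at P1 and 3.71-fold at P7, while for the 5 other genes it lay between 24.5-fold and 189-fold. In I7, where the other genes were near background, Bgn stood at 231 and 290 CPM, against 50.7 and 29.4 CPM in glia-like cells, and it made up 76.7% and 62.2% of the summed level of the 7 genes. The level was higher at P7 in 8 of 9 clusters, in none by 2-fold. The highest log2 ratio was 0.64 in I5 (interval 0.56 to 0.71; 369 to 573 CPM), and the exception was I8, where Bgn was at 418 CPM at P1 and 235 CPM at P7 (log2 ratio -0.83, interval -0.94 to -0.73). In I3 the interval of the ratio spanned 0 (0.07, interval -0.01 to 0.15).

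Aspnl1, the last gene of class I, moved between clusters. It is the row of an asporin-like gene, and RefSeq gives Aspnl1 as another name of Aspn while the files list both, with 9 and 0 UMIs for Aspn in mesenchyme-like cells. How reads were split between these rows is uncertain. Aspnl1 was highest in I6 at P1, at 265 CPM, but at 76.6 CPM there at P7 (log2 ratio -1.79, interval -1.94 to -1.65). In I2 it was at 54.0 CPM at P1 and 128 CPM at P7, the highest of the clusters at that age (log2 ratio 1.24, interval 1.08 to 1.40). The share of its UMIs in I6 was 43.2% at P1 and 16.6% at P7, and that in I2 was 11.4% and 46.1%. The near equal levels over the whole class thus held unequal levels within it. Cluster I5 was second at both ages, with 103 and 81.2 CPM, but at P7 its interval overlapped that of I6. I1 had 34.0 and 13 CPM (log2 ratio -1.38, interval -1.70 to -1.08). In I3, I4, I7 and I8 the level was between 1.40 and 6.70 CPM, below the 7.87 and 10.0 CPM of macrophage-like cells. Glia-like cells had 1.82 and 1.93 CPM, below the levels of I3 and I4 at both ages. Without called doublets macrophage-like cells had 2.50 CPM at P1 (3 UMIs) and 9.33 CPM at P7.

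Of the class II genes, lumican followed decorin in its order over clusters. Lum was at 306 CPM at P1 and 551 CPM at P7 in I2, at 270 and 354 CPM in I5, at 183 and 292 CPM in I9 and at 87.9 and 96.5 CPM in I4. The order of the 9 clusters was the same for Lum and Dcn at P1 and at P7, but for Lum the intervals of I3 overlapped those of both I7 and I8 at either age, so the order of these 3 was not resolved. The age ratios differed more: it was 0.85 on the log2 scale in I2 (interval 0.78 to 0.92) and 0.39 in I5 (0.30 to 0.48), but -0.45 in I6 (-0.57 to -0.34), where Lum was at 241 and 176 CPM. Hence the number of Lum UMIs per Dcn UMI in I6 was 0.227 at P1 and 0.0869 at P7. In I1, I3, I7 and I8 Lum was between 2.74 and 19.96 CPM, and the thinned shares at P7, from 1.62% to 2.12%, were below the 3.68% of macrophage-like but above the 1.37% of glia-like cells. Thinned to 1000 UMIs the shares, from 0.91% to 2.82%, were above the 0.57% of macrophage-like cells. The macrophage-like shares rest on few positive cells, among 163 cells thinned to 2000 and 176 thinned to 1000 UMIs. Whether Lum was background in these 4 clusters was therefore not settled.

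Fibromodulin had another distribution. Fmod was highest in I8 at P1, at 111 CPM, with I6 next at 53.9 CPM and I1 at 25.6 CPM. At P7 it was at 39.2 CPM in I8 (log2 ratio -1.498, interval -1.75 to -1.25), 40.4 CPM in I6 and 30.8 CPM in I1. I8 thus held the lead at P1 alone, and the intervals of I6 and I8 overlapped at P7. A UMI of Fmod was found in 44.6% of I8 cells at P1 and 24.6% at P7 before thinning, and in 20% and 6.24% of thinned cells. Cluster I2, with the most Dcn, had little of it, while I6, also high in Dcn, had much. In I2 there were 40 and 15 UMIs, or 5.39 and 1.33 CPM (log2 ratio -2.02, interval -2.98 to -1.13), and this ratio was -0.92 without called doublets. Glia-like cells had Fmod at 1.91 and 1.13 CPM.

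Osteoglycin was highest in I6, at 2195 CPM at P1, where it was the most abundant of the 7 genes, and at 1297 CPM at P7 (log2 ratio -0.76, interval -0.80 to -0.72). It was at 1552 and 1076 CPM in I5, 1138 and 746 CPM in I1, and 865 and 710 CPM in I2. The first 4 clusters kept their order between the ages. Ogn was lower at P7 in 7 of 9 clusters, in none by 2-fold. Cluster I8 went the other way, from 225 CPM at P1 to 351 CPM at P7 (log2 ratio 0.64, interval 0.53 to 0.75), and its thinned share of cells with Ogn was 29.7% and 45.7%. I7 was also higher at P7, at 40.8 and 53.0 CPM, but these levels were below those of macrophage-like cells (97.8 and 124 CPM). Cluster I8 was thus the one where Fmod and Bgn were lower at P7 while Ogn was higher.

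**Figure D3:**
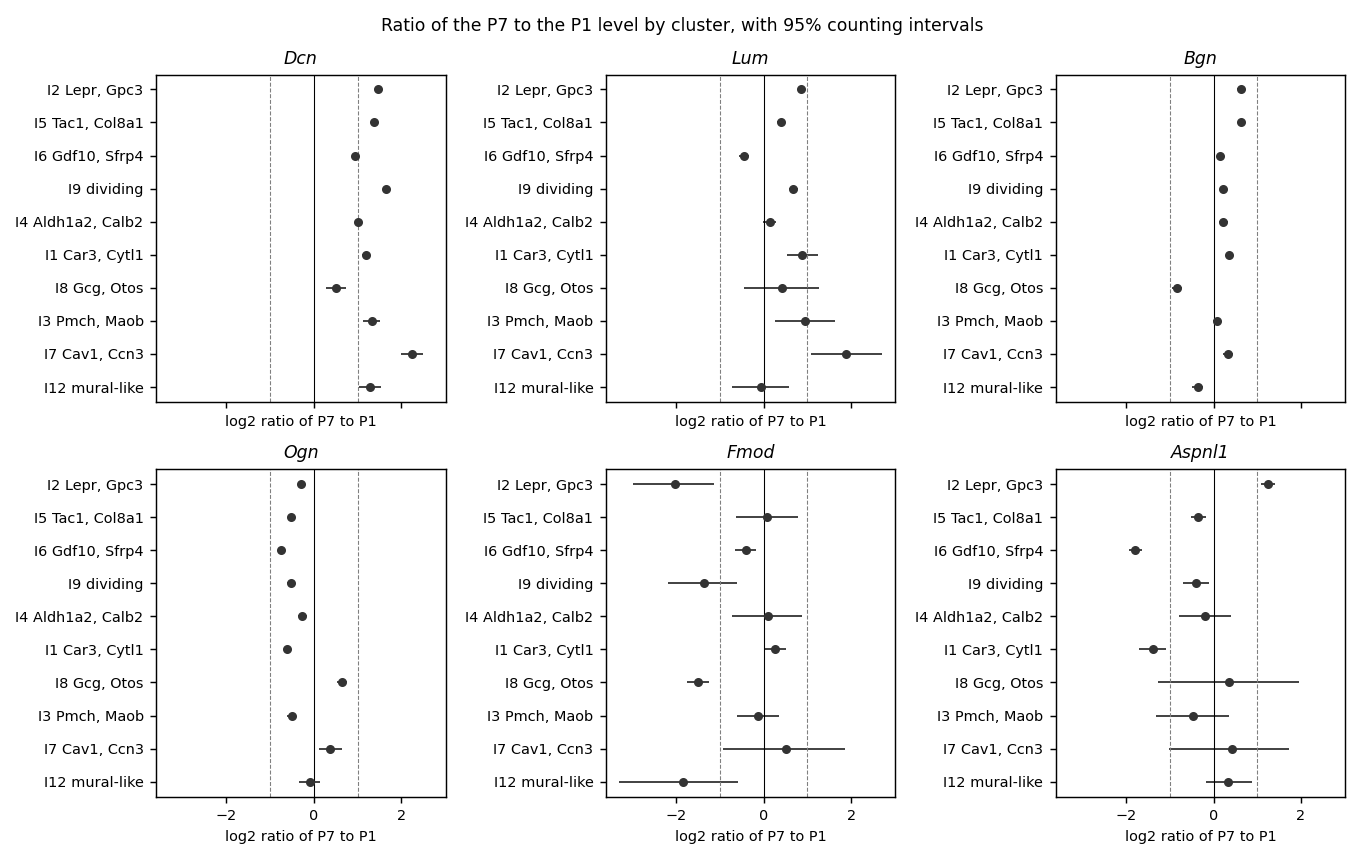
Log2 ratio of the P7 to the P1 level of the 6 genes in 9 mesenchyme-like clusters and the mural-like cluster I12; points are ratios of 2 libraries, bars exact 95% counting intervals, and dashed lines mark 2-fold. All 9 mesenchyme-like points of Dcn lay above 0, 7 of 9 points of Ogn lay below it, and Aspnl1 lay at 1.24 in I2 and -1.79 in I6.

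The genes met in the same cells to different degrees. Among thinned mesenchyme-like cells with a UMI of Lum, 92.0% at P1 and 95.4% at P7 had one of Dcn, against 29.8% and 47.2% of cells without Lum. Cells with Aspnl1 had Ogn in 91.6% and 82.5%, against 50.1% and 53.1% of those without it. Fmod went with fewer Dcn-positive cells, 24.8% and 41.6% against 37.2% and 55.8%, and with fewer Lum-positive cells, 3.86% and 4.05% against 11.5% and 17.5%. Cells with Fmod had Bgn more often, in 61.4% and 63.0% against 46.3% and 54.4%. These are shares of cells of 1 library each, and the part of the clusters in them was not tested. The mean number of the 7 genes found per thinned cell ran from 0.47 in I7 to 2.93 in I6 at P1 and from 0.65 in I7 to 2.82 in I2 at P7.

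Across 36 units, each the cells of 1 integrated cluster in 1 library, the correlation of log2(CPM + 5) with other genes was computed as a description. These units share 2 libraries and their depth. The pattern of Dcn was most like those of Gpc3 (Pearson's r 0.96), Lepr (0.94) and Edn3 (0.94), and that of Lum most like Gpc3 (0.89), Dcn (0.88) and Edn3 (0.86). For Ogn the nearest was the row NEWGENE_1308171 (0.99), then Adamts12 (0.93) and Bicc1 (0.92). For Bgn they were Twist1 (0.95), Tbc1d2b (0.94) and Pth1r (0.94), for Aspnl1 Foxd1 (0.93), Prss35 (0.92) and Col8a1 (0.91), and for Fmod Capn6 (0.86), Rhod (0.82) and Cpxm2 (0.78). Among the 6 genes themselves r was lowest for Dcn with Fmod, at 0.15.

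In mural-like cells biglycan was the main gene. Bgn was at 851 CPM at P1 and 666 CPM at P7 (log2 ratio -0.35, interval -0.46 to -0.25), with a UMI in 78.2% and 65.7% of thinned cells, and it made up 70.7% and 57.3% of the summed level of 1204 and 1162 CPM. Its level there was 2.41-fold that of mesenchyme-like cells at P1 and 1.46-fold at P7. Ogn followed at 185 and 158 CPM (log2 ratio -0.23, interval -0.46 to 0.00), found in 19.3% and 19.8% of thinned cells against 10.1% and 10.4% of macrophage-like cells. Aspnl1 was at 32.9 and 42.9 CPM (log2 ratio 0.39, interval -0.11 to 0.89), in 6.54% and 5.60% of thinned cells against 0.56% and 0.61%. By the point values of these shares the 3 genes were above background in mural-like cells at both ages. For Aspnl1 at P7 the intervals of the shares overlapped, 3.17% to 9.06% in mural-like and 0.016% to 3.37% in macrophage-like cells. Ogn was less clearly above background by level at P7, where the intervals of mural-like and macrophage-like cells overlapped. Without called doublets its levels were 138 and 110 CPM, against 64.2 and 86.8 CPM of macrophage-like cells. Fmod was at 14.8 CPM at P1 (28 UMIs) and 3.71 CPM at P7 (7 UMIs), and Omd had 0 UMIs at either age.

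Dcn and Lum could not be told from background in mural-like cells at P7, by the values of macrophage-like cells. At P1 both were higher than in macrophage-like cells, although for Lum the intervals of the levels overlapped. Dcn was at 97.5 CPM at P1 and 269 CPM at P7 (log2 ratio 1.47, interval 1.22 to 1.72), against 49.2 CPM of macrophage-like cells at P1, and in 15.7% of thinned cells at P7, which is above the 13.7% of glia-like and below the 22.1% of macrophage-like cells. Without called doublets it was at 58.5 and 109 CPM (log2 ratio 0.90), the latter between the 68.8 CPM of glia-like and the 320.0 CPM of macrophage-like cells treated the same way. Lum was at 22.8 and 22.3 CPM and in 2.49% and 0.75% of thinned cells, against 15.1 and 47.3 CPM and 0.56% and 3.68% in macrophage-like cells. With a mean of per-cell CPM the log2 ratio of Lum was 0.72 in place of -0.03. By the 2-fold rule 1 of 5 genes tested, Dcn, was higher at P7 and 0 were lower, where 7.49% of 7395 genes were higher and 5.06% lower. The median log2 ratio was -0.03 for the 5 genes and 0.09 for all genes tested.

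Within each library the comparison of mesenchyme-like with mural-like cells does not involve age. At P1 Dcn was 7.02-fold higher in mesenchyme-like cells (log2 ratio 2.81, interval 2.60 to 3.03), Lum 4.97-fold (2.31, interval 1.88 to 2.78) and Ogn 3.86-fold (1.95, interval 1.80 to 2.11). At P7 the values were 8.75-fold (3.13, interval 3.004 to 3.26) for Dcn, 9.16-fold (3.19, interval 2.76 to 3.67) for Lum and 3.91-fold (1.97, interval 1.80 to 2.14) for Ogn. Without called doublets these log2 ratios were 3.55 for Dcn, 3.06 for Lum and 2.39 for Ogn at P1, and 4.44, 4.26 and 2.50 at P7. Since Dcn and Lum in mural-like cells could not be told from background at P7, the size of their folds there is uncertain. Thus 3 of 6 genes tested at P1 and 3 of 5 at P7 were at least 2-fold higher in mesenchyme-like cells, where 7.25% of 7281 and 8.60% of 7617 genes were. Bgn was at least 2-fold lower at P1 (log2 ratio -1.27, interval -1.34 to -1.19) and less so at P7 (-0.54, interval -0.62 to -0.46), so 1 of 6 and 0 of 5 genes passed, against 10.4% and 9.43% of all genes. Aspnl1 differed little between the classes, with log2 ratios of 0.53 (interval 0.17 to 0.92) and 0.16 (-0.16 to 0.49). The interval of Fmod at P1 spanned 0 (0.52, interval -0.02 to 1.11), and at P7, where its mean was under 10 CPM and it was not counted, the log2 ratio was 2.04 (interval 0.99 to 3.36; 7 UMIs in mural-like cells). The median log2 ratio of the genes was 1.24 at P1 and 1.97 at P7, against -0.05 and -0.04 over all genes tested.

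Lumican was also found in epithelium-like cells, with more UMIs than decorin. Lum was at 115 CPM at P1 and 435 CPM at P7 (log2 ratio 1.92, interval 1.71 to 2.12), and 113.6 and 419 CPM without called doublets. The thinned share of cells with Lum was 11.95% and 29.4%, against 0.80% and 1.37% of glia-like cells. There were 2.52 Lum UMIs per Dcn UMI at P1 (interval 2.01 to 3.19) and 1.52 at P7 (1.36 to 1.70), where mesenchyme-like cells had 0.165 and 0.0865. Lum thus outnumbered Dcn in these cells, the reverse of the mesenchyme-like cells. Fmod was at 20.5 and 39.2 CPM there (48 and 71 UMIs), above its level in glia-like cells. The epithelium-like cells held 5.71% of Lum UMIs and 6.70% of Fmod UMIs at P7. Dcn in them, at 45.7 and 286 CPM, was below the level in macrophage-like cells at both ages, but without called doublets it was 24.6 CPM at P1, above the 16.7 CPM of macrophage-like cells, and 295 CPM at P7, below their 320.0 CPM.

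**Figure D4:**
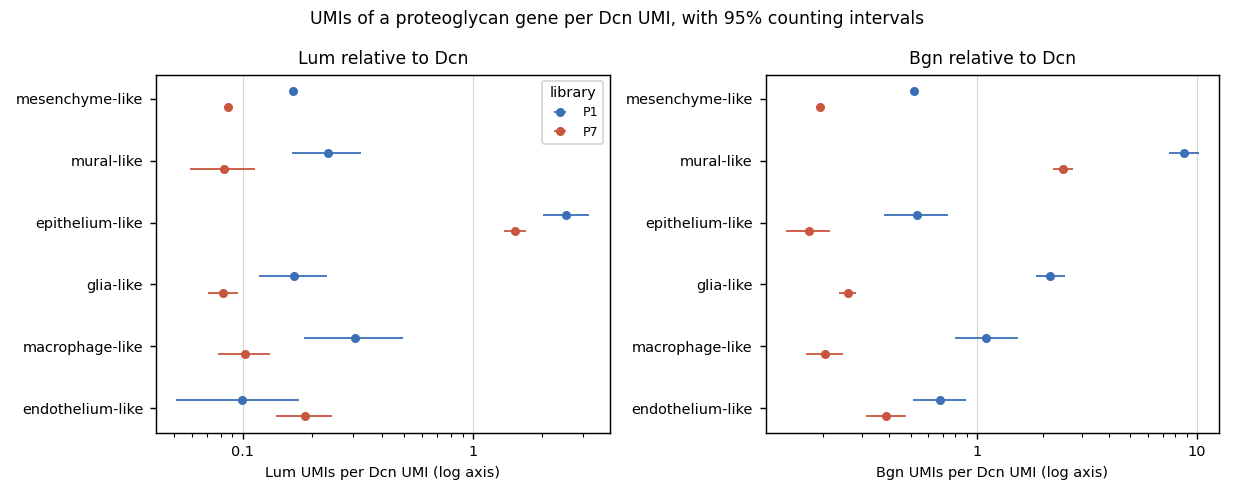
UMIs of Lum (left) and of Bgn (right) per UMI of Dcn in 6 cell classes, on log axes, with P1 in blue and P7 in red; bars are exact 95% counting intervals. Epithelium-like cells stand apart for Lum, at 2.52 and 1.52, and mural-like cells for Bgn, at 8.73 and 2.47.

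The other genes of the family were mostly low in mesenchyme-like cells. Of 10 with a row of their own, 2 had a mean of at least 10 CPM. Prelp, a proteoglycan that anchors basement membranes, was at 48.4 CPM at P1 and 57.7 CPM at P7 (log2 ratio 0.25), and Epyc (epiphycan) at 11.4 and 23.9 CPM (log2 ratio 1.06). Epyc, which lies beside Kera, was mainly in epithelium-like cells, at 1098 and 3082 CPM. Kera (keratocan), next to Lum on chromosome 7, had 19 UMIs in all kept cells at P1 and 63 at P7, of which 16 at P1 and 7 at P7 were in mesenchyme-like and 2 and 53 in epithelium-like cells.

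The genes that build and cleave these proteoglycans were counted in mesenchyme-like cells from lists chosen by name, for genes with a mean of at least 10 CPM. Of the enzymes that make the linker between protein and chain, 4 were tested and 0 passed 2-fold, with a median log2 ratio of 0.42. The highest ratio was that of Xylt2, a xylosyltransferase that starts the linker (20.6 to 40.8 CPM, 0.98). Of 9 enzymes of chondroitin and dermatan sulfate, 3 were at least 2-fold higher and 0 lower at P7 (median 0.76). They were the sulfotransferases Chst12 (4.45 to 17.0 CPM), Chst14 (24.2 to 54.1 CPM), which acts on dermatan sulfate, and Chst7 (6.74 to 14.8 CPM). Of 4 keratan sulfate enzymes, 1 passed, the sulfotransferase Chst1 (27.5 to 92.6 CPM, log2 ratio 1.75), while B3gnt2 was at 16.2 and 11.4 CPM (median 0.60). Of 4 genes of sulfate supply 0 passed (median 0.40). All of these medians lay above the 0.14 of all genes, whose 2-fold shares are those given for mesenchyme-like cells.

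The partners of the proteoglycans in the matrix were less uniform. Of 9 fibril collagen and crosslinking genes tested 3 were at least 2-fold higher and 2 at least 2-fold lower at P7 (median log2 ratio 0.61), where 9.09% of all genes tested were higher and 4.57% lower by this rule. Col3a1, the chain of type III collagen, was the most abundant, at 724 CPM at P1 and 1803 CPM at P7 (log2 ratio 1.32), and Col1a2 (4.79 to 17.4 CPM) and the lysyl hydroxylase Plod2 (24.8 to 50.6 CPM) also passed. Col1a1 was at 279 and 93.5 CPM (log2 ratio -1.58) and Col5a1, a chain of the collagen that nucleates fibrils, at 44.2 and 19.7 CPM (-1.17). The rows listed for the chains of type I collagen thus differed in direction, and Col1a2 was listed at a small fraction of the Col1a1 level at P1. Whether the Col1a2 row counts all transcripts of that gene was not tested, so its ratio is uncertain. Of 3 proteases that cut these proteoglycans 1 passed, Bmp1 (39.97 to 87.8 CPM, log2 ratio 1.14), which trims the biglycan precursor, and Mmp2 was the most abundant, at 506 and 763 CPM. Of 6 TGF-beta ligands and receptors, 2 passed, Tgfb3 (23.0 to 48.9 CPM) and Tgfb1 (14.1 to 28.9 CPM), with a median of 0.83. The most abundant of them, Tgfb2, was at 73.3 and 62.9 CPM (log2 ratio -0.22), and the receptor gene Tgfbr2 at 15.1 and 9.23 CPM (-0.71). The other receptor genes were higher at P7, Tgfbr3 at 22.6 and 42.3 CPM (0.90) and Tgfbr1 at 8.59 and 14.5 CPM (0.75).

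Markers of other cells also moved with age in the mesenchyme-like cells. The summed level of the 3 erythroid markers with a row of their own was 48.7 CPM at P1 and 233 CPM at P7, led by Hbb, and a haemoglobin UMI was found in 32.2% and 67.3% of the cells, with like shares in mural-like cells (35.3% and 66.9%). The 9 glial markers summed to 1009 and 1812 CPM, led by S100b, the 10 macrophage markers to 10.0 and 44.5 CPM, the 7 osteoblast markers to 43.3 and 177 CPM, led by Ibsp at P1 and Dmp1 at P7, and the 7 chondrocyte markers to 132 and 386 CPM, led by Cnmd. At P1 1 of the 10 macrophage markers was at 0, and every other marker of these lists with a row had a UMI in both libraries. The 7 neuron markers were lower at P7, at 86.4 and 22.6 CPM, while the 10 epithelium markers summed to 20.4 and 43.6 CPM and the 9 endothelium markers to 491 and 635 CPM. Their part in the age ratios of the proteoglycans was not tested.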

How the data were processed

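Each library was a 10x Genomics 3′ droplet library. Per the file headers and the study's methods, the authors used Cell Ranger 3.1.0 for alignment (build rn6) and UMI counting, and the deposited values are whole UMI counts per gene and barcode, without normalization. The submitters' processing notes also name bcl2fastq and Seurat 3.1.1. By the methods red cells were lysed, dead cells removed, and stria vascularis, ligament and ganglion dissected away. No correction for free RNA is stated there. The total was 114285848 UMIs at P1 and 101264868 at P7, and 60 barcode sequences were in both libraries.

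As in the methods, a barcode was kept if it had over 500 but below 5000 genes, 500 UMIs or more, and a mitochondrial share of less than 25%. The study's own list of kept cells was not used here, and the numbers kept by these limits differ slightly from those it states. Counts were log-normalized to 10000 per cell and clustered in Seurat 5.3.0 (R 4.3.3, Matrix 1.6.5) on 10 principal components, with 20 neighbours and a resolution of 0.8. Of 2000 variable genes, 1865 were used for the merged libraries and 1864 with canonical correlation integration, all listed genes being left out. Classes come from the merged clusters, single clusters from the integrated ones. A cluster took the class with the highest mean z-score of its fixed markers and a mesenchymal state by its state genes among its 10 leading genes. The state rule, and the use of neutrophil markers for comparison only, were settled after the clusters had been seen. Clusters with over 50% called doublets stayed unnamed. Scrublet in scanpy 1.11.5 called 622 cells (4.87%) at P1 and 775 (6.16%) at P7, which were kept in the values reported. Haemoglobin genes were not read as erythroid identity, since their share of cells was alike in most classes.

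Log2 ratios are ratios of summed UMIs in CPM without a pseudocount. Genes with a mean of at least 10 CPM over the groups compared were counted, and 2-fold was the limit. A count of 0 was given a limit of 3 counts. Intervals were Poisson for levels, Clopper-Pearson for shares and conditional binomial for ratios, at 95%, computed with scipy 1.17.1 and numpy 2.4.6 (Python 3.11.15, pandas 2.3.3, figures with matplotlib 3.10.9). Steps were tested on simulated data. The 7 genes and all lists were chosen with earlier results of these data known. By the rule for names, all 7 genes are given, up to 4 genes of each list with the largest log2 ratio and its most abundant gene, the 3 genes of highest correlation with each of the 7, and the 10 leading genes of a cluster. Named in addition were Plod2, which passed 2-fold, Tgfbr2, which was lower at P7, and family genes beside the 7 on the genome. Of the listed genes, Podn, Ecm2, Foxd3, Hba-a1 and Hba-a2 had no single row. The files name Hba-a2 on more than 1 row. Alternatives were other clusterings, removal of called doublets, a mitochondrial limit of 10%, another total, per-cell means, a pseudocount of 5 CPM, the median of all genes set to 0, no minimum level, and other depths for detection. Added after seeing the data were the omission of the cluster with haemoglobin genes, equal weights of clusters and the alternatives for single clusters.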

Additional observations from a re-analysis of the deposited data

Results flagged for a closer look

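The following pairs of ratios were picked out because the age ratio pointed opposite ways in 2 clusters or classes, with counting intervals on either side of 0. With 1 library per age none of these differences was tested, and no cause was examined. Bgn was higher at P7 in mesenchyme-like cells (log2 ratio 0.37) and lower in mural-like cells (-0.35), and among mesenchyme-like clusters it was 0.64 in I5 and -0.83 in I8. Ogn was 0.64 in I8 and -0.76 in I6, the reverse of the direction of Bgn in I8. Aspnl1 was 1.24 in I2 and -1.79 in I6, which held 46.1% and 16.6% of its UMIs at P7. Lum was 1.88 in I7 and -0.45 in I6, where the I7 value rests on 24 and 33 UMIs at the level read as background. Fmod was 0.27 in I1 and -2.02 in I2, the latter from 40 and 15 UMIs and -0.92 without called doublets, and the former was -0.03 as a mean of per-cell CPM.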

How the results depend on the processing

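Direction was kept more often in classes than in the states of the merged clustering. Of 144 alternative age ratios of classes 137 kept the sign, as did all 132 alternative ratios of mesenchyme-like to mural-like cells and 288 of 300 in single integrated clusters, but only 57 of 72 in states. In mesenchyme-like cells the log2 ratio ranged from 1.36 to 2.03 for Dcn, 0.45 to 1.10 for Lum, 0.22 to 0.39 for Bgn, -0.50 to -0.11 for Ogn, -0.72 to -0.37 for Fmod and -0.58 to 0.22 for Aspnl1, whose sign changed. The number of genes at least 2-fold higher at P7 in mesenchyme-like cells was 2 in place of 1 (Dcn and Lum) without the cluster with haemoglobin genes. That omission, which removed almost only P7 cells, also gave the values of 2.03 for Dcn and 1.10 for Lum. In mural-like cells it was 0 without called doublets, and the number at least 2-fold lower was 1 (Fmod) in place of 0 with a mean of per-cell CPM, with no minimum level, and with a total without mitochondrial, ribosomal protein and haemoglobin genes. A mean of per-cell CPM also turned the log2 ratio in mural-like cells from -0.03 to 0.72 for Lum and from -0.23 to 0.0048 for Ogn. The causes were not tested. In the state led by Ccn3, Irx3 and Scg3, which had 90 and 123 cells in the merged clustering, integration turned the log2 ratio of Aspnl1 from -1.03 to 0.43 and that of Fmod from -1.10 to 0.52, and that of Aspnl1 was 0 with a mitochondrial limit of 10%. It also turned Ogn there from -0.77 to 0.38 and Bgn from -0.32 to 0.33, and, in the state led by Otor, Crym and Coch, Dcn from -0.13 to 1.17 and Lum from -0.60 to 0.86. States of the merged clustering were mostly filled by 1 library and are not otherwise reported. Of 28 alternative shares of cells with a UMI 24 moved beyond their interval, since depth sets them. Lum, Fmod and Aspnl1 in clusters with few UMIs are limited by counting. No paired analysis was possible because each age had 1 library. For the same reason no replicate could be left out.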
